A study of Mus musculus with 5 samples.

Results

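Scd1 encodes stearoyl-CoA desaturase 1, the main enzyme of mouse liver that turns saturated fatty acids into monounsaturated ones. It is 1 gene of a panel of 64 genes measured by targeted single-cell RNA sequencing of hepatocytes during fasting. It was selected for its measured levels: its share of the panel's counts stood near or above the fed value from 8 h to 24 h of fasting, while other genes of fatty acid synthesis stood far below theirs. Its levels over time are therefore a description and were not tested. The description of Scd1 as kept through fasting holds by that share up to 24 h, not at 30 h, and it does not hold at 8 h or 16 h when counts are taken per barcode.

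The study followed hepatocytes of male mice of the C57BL/6J strain, wild type and fed normal chow (lab diet), through 5 points between feeding and prolonged fasting, with 1 library for each point. All mice had been accustomed for 3 days to a daily rhythm of 16 h without food and 8 h with it, and had 20% sucrose in their water while fed. Fed mice (0 h) were killed 4 h into a feeding period, at clock hour 13. The mice fasted for 8 h, 16 h, 24 h and 30 h were taken at clock hours 21, 5, 13 and 19, so only 0 h and 24 h share a clock hour. Where 5 values follow each other in time order, they belong to 0 h, 8 h, 16 h, 24 h and 30 h, and 4 values belong to the 4 fasted libraries. In the other comparisons, hours of fasting and clock hour cannot be told apart. The sources used here do not give the number or age of the mice behind a library, or how the liver was dissociated. With 1 library per time point there is no replicate error, and every interval below covers counting error only, at 95%.

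SCD1 sits in the membrane of the endoplasmic reticulum and places a double bond in palmitoyl-CoA and stearoyl-CoA, giving palmitoleate and oleate for triglycerides, phospholipids and cholesteryl esters. In the fed liver, insulin raises lipogenic transcription through SREBP-1c, the product of Srebf1, and carbohydrate does so through ChREBP, the product of Mlxipl. LXR, encoded by Nr1h3, acts on Srebf1 and on Scd1 directly. Acly, Acaca, Fasn and Elovl6 supply the saturated chains that SCD1 desaturates. Along the liver lobule, hepatocytes near the portal vein and near the central vein differ in many enzymes, and Cyp2f2 and Cyp2e1 mark the 2 ends.

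Scd1 (ENSMUSG00000037071) lies on the minus strand of mouse chromosome 19, from 44394455 to 44407879 on GRCm38. The GENCODE annotation gives it 3 transcripts. The main one has 6 exons, 1065 coding bases and a 3′ UTR of 3467 bases, in a transcript of 4832 bases. No other gene overlaps an exon of Scd1, and its paralogs Scd3, Scd2 and Scd4 lie beside it on the plus strand and are not on the panel.

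The libraries held 7208 to 12153 barcodes and 3979629 to 11288725 panel UMIs (unique molecular identifiers, each standing for 1 captured transcript). The 8 h library stood apart, with a median of 219 UMIs per barcode against 651 to 1202.5 in the others, and with 47.8% of its barcodes under 200 UMIs. Of 47235 barcode sequences, 238 occurred in more than 1 library. The panel held 6 of 9 listed hepatocyte markers, and Alb alone took between 69.4% (0 h) and 71.8% (24 h) of the UMIs. It held 6 of 16 markers of other liver cells, whose summed level was 76.2, 220, 34.4, 43.2 and 29.7 CPM (UMIs per 1000000 panel UMIs) in time order. None of the 6 was at 0 in any library.

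Scd1 was the second most counted gene after Alb in every library, a rank that also depends on how well the panel captures each gene. The fed library had 580985 Scd1 UMIs, which is 76954 CPM (76756 to 77152). At 8 h there were 323725 UMIs and 81346 CPM (81066 to 81626). At 16 h there were 578294 UMIs and 93956 CPM (93714 to 94199). The values were near each other over this span, with each library a little above the one before. The 24 h library had the most, 1030541 UMIs and 98785 CPM (98595 to 98976). The 30 h library had the least by CPM, 656127 UMIs and 58122 CPM (57982 to 58263).

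Set against the fed library, the 4 fasted ones had log2 ratios of CPM of 0.080 (0.074 to 0.086), 0.29 (0.28 to 0.29), 0.36 (0.356 to 0.365) and -0.40 (-0.41 to -0.40) in time order. Scd1 thus stood at 106%, 122%, 128% and 75.5% of its fed level. From lowest to highest, the order was 30 h, 0 h, 8 h, 16 h and 24 h. The steps between neighbours in that order were 0.40, 0.080, 0.21 and 0.072 on the log2 scale. Each is wider than its counting interval, but whether it is wider than the spread between mice is not known. From 24 h to 30 h Scd1 CPM was lower by a log2 ratio of -0.77 (-0.77 to -0.76), the widest step between consecutive times.

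A share of panel UMIs moves with Alb, so Scd1 was also set against the other genes. Without Alb in the denominator, Scd1 took 25.2%, 28.3%, 32.3%, 35.0% and 19.3% of panel UMIs in time order. Per 100 Alb UMIs there were 11.1, 11.4, 13.3, 13.8 and 8.31 Scd1 UMIs. Both measures kept the order of the libraries by CPM. Counts per barcode did not: the mean barcode held 80.6, 26.6, 61.1, 120 and 65.0 Scd1 UMIs. By that measure Scd1 at 8 h and 16 h lay below 0 h, with log2 ratios of -1.60 and -0.40, in the libraries with the lowest total per barcode. The part of depth in this was not tested.

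**Figure D1:**
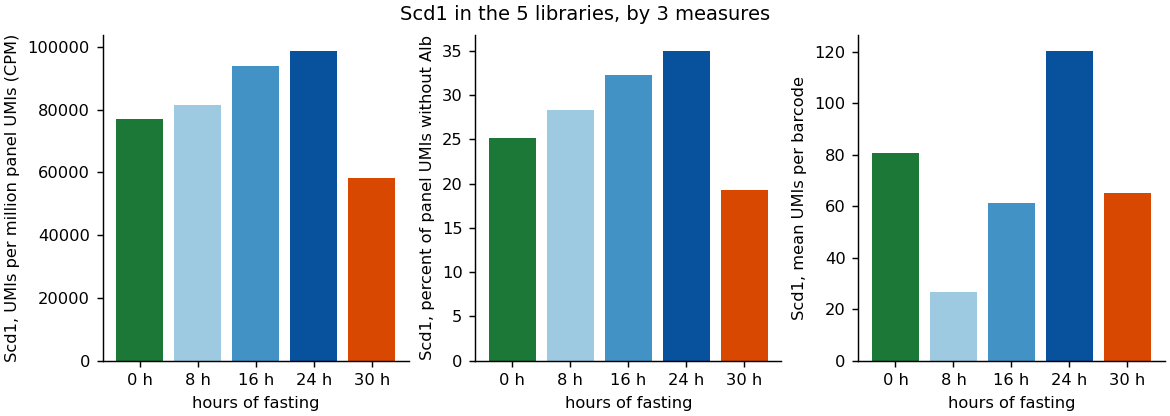
Scd1 in the 5 libraries as CPM (left), as percent of panel UMIs without Alb (middle) and as mean UMIs per barcode (right), each on a linear axis from 0, with 1 bar per library and no replicates. Scd1 was highest at 24 h by all 3 measures, at 98785 CPM, 35.0% and 120 UMIs, while 8 h and 16 h lay above 0 h by the first and the second measure and below it by the third.

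At least 1 Scd1 UMI was found in all barcodes of 4 libraries and in 99.9% of those at 8 h, where 16 barcodes had none. These shares cannot be read as shares of expressing cells. In barcodes with at least 3 UMIs of the other-cell markers (4 to 105 per library), Scd1 stood at 73954, 71291, 48780, 94831 and 61928 CPM in time order, with the widest interval (37041 to 63060) at 16 h, where they were fewest. These barcodes also held Alb, at 49.4% to 67.1% of their UMIs, and they set no background for Scd1.

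The lipogenesis list took 29 genes, of which 17 besides Scd1 were on the panel (13 enzymes and 4 transcription factors). A gene is counted below as lower or higher when its CPM differed from 0 h by over 2-fold, among 56 genes with at least 100 UMIs in the 2 libraries compared. At 8 h, 6 of the 17 were lower, where 12.5% of the 56 were, and 2 were higher, against 17.9%. At 16 h, 9 were lower (28.6% of the 56) and 1 higher (10.7%). At 24 h, 7 were lower (23.2%) and 0 higher (8.93%). At 30 h, 8 were lower (26.8%) and 1 higher (16.1%). Scd1 was not among them at any time by CPM. The list's median log2 ratio was -0.57, -1.02, -0.90 and -0.91 in time order, against 0.047, -0.15, -0.12 and -0.071 over all genes compared. The log2 ratio of Scd1 lay above that of 15, 15, 16 and 9 of the 17 genes in the 4 fasted libraries. Since Scd1 was picked on this contrast, these counts describe the choice and support nothing.

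The enzymes that make the substrate of SCD1 stood far below their fed level. Fasn, fatty acid synthase, had 27202, 4378, 1862, 892 and 943 CPM in time order. Acly, which makes cytosolic acetyl-CoA from citrate, had 20793, 6114, 2547, 2038 and 1264 CPM. Acaca, acetyl-CoA carboxylase 1, had 3125, 1477, 568, 366 and 306 CPM. Elovl6, which lengthens palmitate to stearate, had 7911, 1708, 576, 347 and 220 CPM. In all 4 enzymes every fasted library lay below 0 h, by a log2 ratio of -1.08 for Acaca at 8 h to -5.17 for Elovl6 at 30 h.

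The count of Scd1 per UMI of such a gene depends on neither the panel total nor Alb, and its change over time can be read although the genes differ in capture. For each Fasn UMI there were 2.83 (2.81 to 2.84), 18.6 (18.3 to 18.9), 50.5 (49.5 to 51.4), 111 (109 to 113) and 61.6 (60.4 to 62.8) Scd1 UMIs in time order. This is 39.2 times the fed ratio at 24 h and 21.8 times at 30 h. Per Elovl6 UMI, Scd1 had 9.73, 47.6, 163, 284 and 265 UMIs. Per Acly UMI the values were 3.70, 13.3, 36.9, 48.5 and 46.0, and per Acaca UMI 24.6, 55.1, 166, 270 and 190. All 4 ratios were highest at 24 h. The 30 h ratios were below those at 24 h, yet at least 7.72 times their fed values.

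Among the transcription factors, Srebf1 had 4538, 167, 606, 300.3 and 237 CPM in time order, lowest at 8 h, when Scd1 stood near its fed level. Mlxipl had 2026, 1605, 881, 657 and 619 CPM, lower at each later time. Nr1h3 had 885, 744, 712, 718 and 855 CPM, with log2 ratios no lower than -0.31. Usf1, another factor of lipogenic promoters, had 95.2, 64.3, 62.1, 58.6 and 95.4 CPM.

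The other desaturases did not follow Fasn. Fads1, the delta-5 desaturase of polyunsaturated fatty acids, had 2776, 2289, 2744, 3058 and 2298 CPM, log2 ratios of -0.28, -0.017, 0.14 and -0.27. Fads2, the delta-6 desaturase, had 4191, 3114, 3698, 5763 and 4261 CPM, and was the only gene of the list above Scd1 at 24 h, at a log2 ratio of 0.46 against 0.36. Scd1, Fads1 and Fads2 all had their highest CPM at 24 h. The 2 genes of the list above Scd1 at both 8 h and 16 h were elongases. Elovl5, which lengthens polyunsaturated chains, had log2 ratios of 1.53, 0.79, 0.27 and 0.51, and Elovl3 had 5.66, 3.43, 0.093 and 4.21. Elovl2 had log2 ratios of -0.53, 0.26, 0.22 and 0.28.

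For triglyceride synthesis, Gpam, the first acyltransferase of the pathway, had 7454, 2368, 2517, 1922 and 1647 CPM. Scd1 per Gpam UMI was 10.3, 34.4, 37.3, 51.4 and 35.3. Dgat2, which adds the last acyl chain, had 9754, 5587, 4758, 5218 and 4269 CPM, and Scd1 per Dgat2 UMI was 7.89, 14.6, 19.7, 18.9 and 13.6. For these 2 genes every fasted ratio lay above the fed one, by less than for Fasn. Dgat1, the other enzyme of that last step, had 253, 211, 195, 267 and 351 CPM. Scd1 per Dgat1 UMI was 304 (290.4 to 318), 386 (361 to 413), 481 (454 to 509), 370 (356 to 384) and 166 (161 to 171), so at 30 h it lay below the fed ratio.

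**Figure D2:**
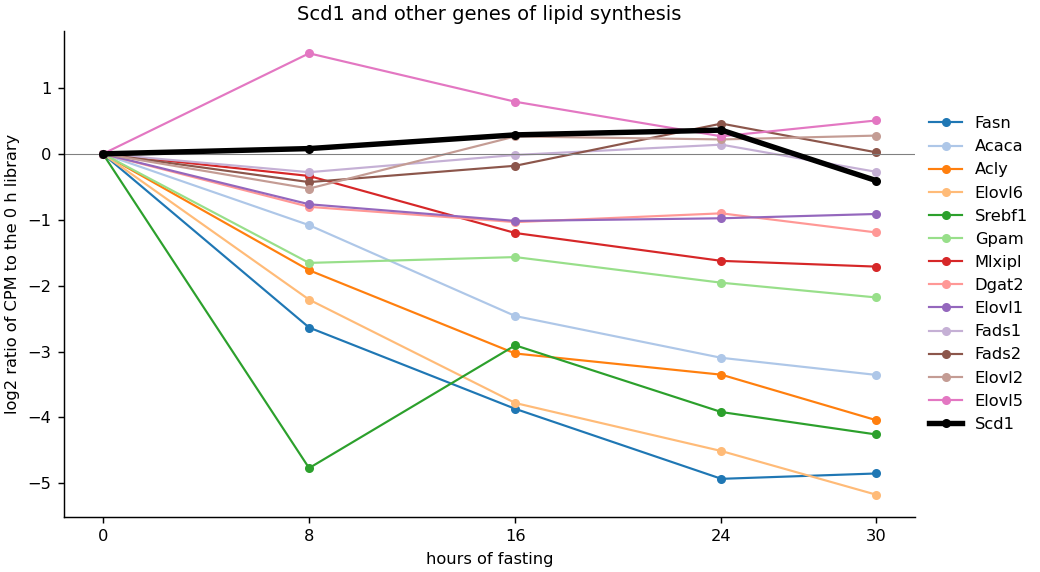
Log2 ratio of CPM to the 0 h library against hours of fasting for Scd1 (thick black line) and 13 other genes of lipid synthesis, 1 library per time point. Elovl3, Dgat1, Nr1h3 and Usf1 of the same list are not drawn, and none of them fell as Fasn did. Scd1 has 0.080, 0.29, 0.36 and -0.40 in the fasted libraries, with Fads1 and Fads2 near it and Fasn and Elovl6 below -4.5 at 24 h; by UMIs per barcode the Scd1 values at 8 h and 16 h were below 0.

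A second list held fasting-response genes, with 5 of 10 on the panel (Pck1, G6pc, Sds, Igfbp1 and Fgf21). Over 2-fold higher were 3, 3, 2 and 4 of the 5 in the 4 fasted libraries, where 17.9%, 10.7%, 8.93% and 16.1% of all genes compared were. Over 2-fold lower was 1 of the 5 at 24 h, where 23.2% of all were. Scd1 lay within 2-fold of 0 h at each time by CPM, but by UMIs per barcode it lay beyond 2-fold at 8 h.

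By likeness of the time course, measured as the root mean square difference in log2 ratio to 0 h over the 4 fasted libraries among 51 genes, the nearest to Scd1 were Nr1h4 (0.21), Fads1 (0.27) and Alb (0.29). Alb makes up at least 69.4% of the CPM denominator, which holds its own log2 ratios near 0 (0.0099 to 0.048). Its likeness to a gene of little change is therefore largely built in. Nr1h4 encodes the bile acid receptor FXR and had 1083, 1162, 1203, 1169 and 1016 CPM. Without the shallow 8 h library, Fads1 came first (0.23), Nr1h4 second (0.24) and Alb ranked 4.

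Zone position was then described within each library. Barcodes with a UMI of Cyp2e1 or Cyp2f2 were ranked by the ratio of these genes and split into 10 equal bins, from the Cyp2f2 (periportal) end to the Cyp2e1 (pericentral) end. This left out 1, 93, 4, 0 and 0 barcodes. Zone markers that took no part in the ranking followed it: Glul, the pericentral glutamine synthetase, had a log2 ratio of the last 2 bins over the first 2 of 1.62 to 3.75, and the periportal marker Hsd17b13 of -1.64 to -0.93.

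In CPM, Scd1 was higher at the Cyp2e1 end in all 5 libraries. At 0 h it stood at 69073 CPM in the first 2 bins and 117056 in the last 2. In the fasted libraries the first 2 bins held 62977, 79068, 80589 and 50443 CPM, and the last 2 held 112667, 139833, 137392 and 81750. The log2 ratios were 0.76 (0.75 to 0.77), 0.84 (0.83 to 0.85), 0.82 (0.81 to 0.83), 0.77 (0.76 to 0.78) and 0.70 (0.69 to 0.71) in time order, or 1.62-fold to 1.79-fold. When the denominator held no Alb, the ratio could not be told from 0 at 0 h (-0.0098, -0.021 to 0.0018) or 8 h (-0.0046, -0.018 to 0.0090). It had the opposite sign later, at -0.19 (-0.21 to -0.18), -0.30 (-0.30 to -0.29) and -0.30 (-0.31 to -0.29). That denominator still held Cyp2e1, which ranks the barcodes and takes a larger share of it at the Cyp2e1 end. A denominator without Cyp2e1 as well was not run. By UMIs per barcode the log2 ratios lay between -0.12 (0 h) and 0.039 (16 h), and were below 0 at 0 h, 8 h and 30 h. No zone direction of Scd1 that holds for every denominator was found.

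The profile along the bins differed between libraries. At 0 h, bins 1 to 6 held 68204 to 69546 CPM, bin 7 held 72792, and bins 8, 9 and 10 held 89090, 113957 and 119988. At 8 h CPM was higher in each bin than in the one before, with 61949 in bin 1, 83145 in bin 4, 91776 in bin 6 and 113328 in bin 10. From bin 1 to bin 6, CPM went from 79034 to 84627 at 16 h, from 78662 to 96636 at 24 h and from 50393 to 52026 at 30 h. The highest bin was the last at 0 h and 8 h and the ninth later, where it held 145707, 143665 and 84275 CPM. Alb moved along the same axis, with 72.7%, 78.1%, 75.6%, 78.6% and 75.2% of UMIs in bin 1 and 47.5%, 58.3%, 47.5%, 51.3% and 45.4% in bin 10. Without Alb in the denominator, Scd1 was lowest in the last bin in 4 libraries, at 22.9% (0 h), 25.6% (16 h), 27.0% (24 h) and 14.6% (30 h). The exception was 8 h, with its lowest share, 26.5%, in bin 7. Cyp2e1, which ranks the barcodes, stayed in that denominator. Bin 10 held 107714, 82582, 142269, 154219 and 218049 CPM of Cyp2e1 in time order, and its part in the low last bin was not tested. Depth also moved with the axis: the median was 1223.5 UMIs per barcode at the Cyp2f2 end and 603 at the Cyp2e1 end at 0 h, and 587 and 252.5 at 8 h.

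**Figure D3:**
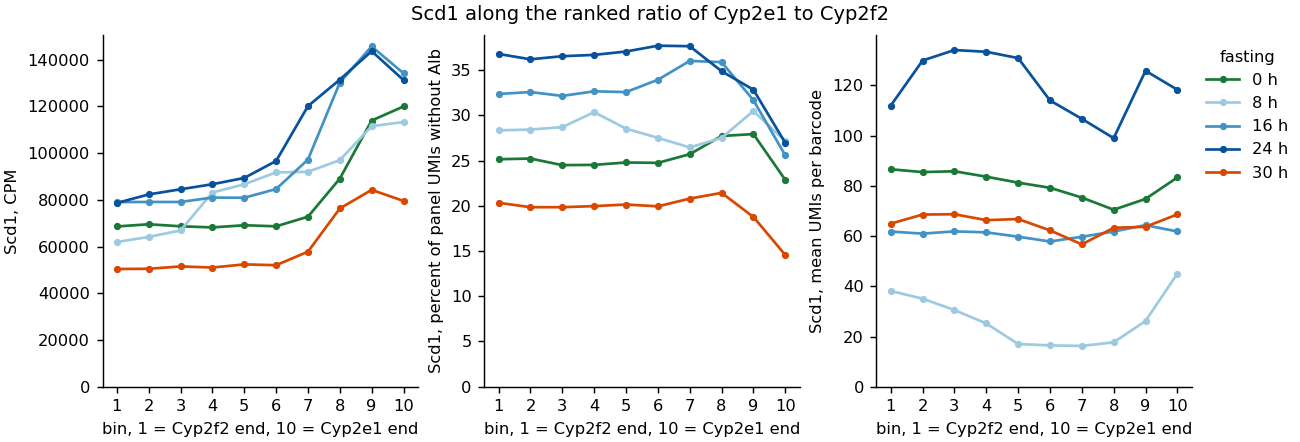
Scd1 in 10 bins of barcodes ranked by the ratio of Cyp2e1 to Cyp2f2, from the Cyp2f2 end (bin 1) to the Cyp2e1 end (bin 10), as CPM (left), percent of panel UMIs without Alb (middle) and mean UMIs per barcode (right), 1 line per library. CPM was higher at the Cyp2e1 end in all 5 libraries (log2 0.70 to 0.84), whereas without Alb it was below 0 at 16 h, 24 h and 30 h (-0.19, -0.30 and -0.30) with intervals that include 0 in the other libraries, and per barcode it was below 0 at 0 h, 8 h and 30 h. The denominator without Alb still holds Cyp2e1, which ranks the barcodes.

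Most of the panel leaned the same way by CPM. Of the 49 or 50 genes besides Cyp2e1 and Cyp2f2 with at least 100 UMIs in the 2 ends together, 39 to 43 had a ratio above 0 in CPM. Without Alb, but with Cyp2e1 still in the denominator, 10 to 15 did. The median log2 ratio was 0.66, 0.66, 0.89, 0.78 and 0.54 in time order. The Scd1 ratio lay below that of 14, 16, 27, 25 and 19 genes. The genes nearest to Scd1 in zone ratio over the 5 libraries were Dgat2 (root mean square difference 0.097), Nr1h4 (0.10) and Elovl1 (0.11), the last an elongase of long saturated chains. Dgat2 ran from 0.72 at 30 h to 0.998 at 16 h by CPM, and from -0.27 to -0.020 without Alb.

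Change over time was alike at the 2 ends by sign. At the Cyp2f2 end, the log2 ratios of Scd1 CPM to 0 h were -0.13, 0.19, 0.22 and -0.45. At the Cyp2e1 end the ratios were -0.055, 0.26, 0.23 and -0.52. At 8 h both ends thus lay below 0 h although the whole library lay above it; bins 5 to 8 of that library had medians of 114.5 to 121 UMIs per barcode. Without Alb the 8 h ratios were above 0, at 0.17 and 0.18. At the later times without Alb the ends agreed in sign but less in size. The ratios were 0.37, 0.53 and -0.33 at the Cyp2f2 end, and 0.18, 0.25 and -0.62 at the Cyp2e1 end. The denominator without Alb still held Cyp2e1, at 107714 CPM in bin 10 at 0 h. In bin 10 at 16 h, 24 h and 30 h, Cyp2e1 had 142269, 154219 and 218049 CPM. The part of Cyp2e1 in the gap between the ends was not tested. Scd1 per Fasn UMI was 2.76, 20.1, 48.8, 119 and 55.7 at the Cyp2f2 end and 3.39, 21.4, 56.9, 108 and 85.2 at the Cyp2e1 end. It was above its fed value at the 2 ends of the axis in every fasted library.

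Spread between barcodes was taken at equal depth, by thinning each barcode at random to 200 panel UMIs. This left out 52, 5807, 522, 4 and 26 barcodes in time order, so the 8 h values describe its deeper 6346 barcodes. The median barcode had 14, 15, 18, 19 and 11 Scd1 UMIs. The barcodes between percentiles 5 and 95 ran from 5 to 32 UMIs in the fed library, and from 4 to 35, 7 to 37, 9 to 36 and 3 to 25 UMIs in the fasted ones. The distributions overlapped broadly and had 1 peak each, with no separate peak of barcodes low in Scd1. Barcodes with no Scd1 UMI after thinning numbered 4, 5, 1, 0 and 29 in time order. With 3 counts as the limit that a count of 0 allows, the 0 of 8554 barcodes at 24 h allow a share of up to 0.0351%. The 29 at 30 h are 0.288% (exact Clopper-Pearson interval 0.193% to 0.413%).

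The variance of the thinned counts was 3.26 (24 h) to 5.28 (8 h) times the mean, above the value of 1 or less that counting alone gives. Taking counting out of the unthinned counts left a coefficient of variation of 0.49, 0.58, 0.43, 0.34 and 0.50. The 24 h library, highest in Scd1, had the smallest spread. With a separate mean for each zone bin the values ranged from 0.26 (24 h) to 0.47 (8 h), and without Alb in the depth from 0.30 (24 h) to 0.47 (8 h). Among genes with a mean of at least 1 UMI per barcode, Scd1 ranked 25 of 39, 24 of 32, 15 of 31, 12 of 35 and 25 of 34 from the least variable. The 10% of barcodes with most Scd1 held 18.0% of the thinned Scd1 UMIs at 24 h, the lowest of the 5 libraries.

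**Figure D4:**
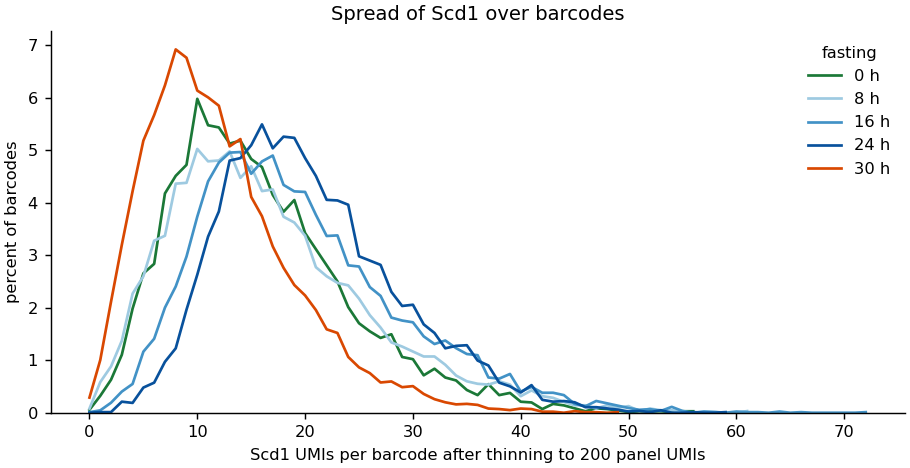
Percent of barcodes (vertical axis) by number of Scd1 UMIs after thinning to 200 panel UMIs (horizontal axis), 1 line per library. The 5 distributions overlap and each has 1 main peak, with medians of 14, 15, 18, 19 and 11 UMIs in time order.

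Coupling between genes was described by Pearson's r over barcodes, after a linear fit of log2(1 + UMIs) on the log2 of the other panel UMIs. It ran over 6346 (8 h) to 10068 (30 h) barcodes of at least 200 UMIs per library, and over partners with a mean of at least 1 UMI. All barcodes of a library share its preparation, and a barcode's Alb content enters the depth term. The number of partners was 38, 31, 30, 34 and 33 in time order, and r was above 0 in 33, 29, 27, 32 and 30 of them. The median r was 0.22, 0.22, 0.23, 0.33 and 0.19. With Alb left out of the depth term it was 0.086, 0.077, 0.11, 0.15 and 0.098. The highest partner was Gpam at 0 h (0.53), Acly at 8 h (0.46) and Cyp2e1 at 16 h (0.47), 24 h (0.65) and 30 h (0.41).

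At 0 h, r with the lipogenic enzymes as counted differed widely. It was 0.53 with Gpam, 0.50 with Fasn, 0.50 with Elovl6, 0.42 with Acly and 0.34 with Dgat2. It was nearer the median of all partners (0.22) with Elovl5 (0.26), Acaca (0.24), Fads1 (0.23) and Fads2 (0.20), and lower with Elovl2 (0.13). These enzymes also differed in counts, from a mean of 2.73 UMIs per barcode for Elovl5 to 28.6 for Fasn. The measure with counting noise taken out used UMIs about a mean proportional to depth, not log2 residuals, so its scale differed too. By that measure, r at 0 h was 0.71 with Gpam, 0.65 with Fasn, 0.64 with Elovl6, 0.61 with Dgat2 and 0.61 with Elovl5. It was 0.54 with Acly, 0.52 with Acaca, 0.50 with Fads1, 0.39 with Fads2 and 0.25 with Elovl2. The ranking thus differed between these measures. The part of partner counts in this was not tested, because the scale changed too. Among the factors, r was 0.22 with Mlxipl and 0.19 with Srebf1. Without Alb in the depth term, r was 0.46 with Gpam, 0.45 with Elovl6, 0.35 with Fasn and 0.23 with Acly. Over the fasted libraries, r with Fasn was 0.38, 0.23, 0.26 and 0.11, with Acly 0.46, 0.15, 0.20 and 0.11, and with Gpam 0.24, 0.25, 0.33 and 0.15. Elovl6 fell short of a mean of 1 UMI per barcode in the fasted libraries. Fewer UMIs of a partner lower r by themselves. Fasn had a mean of 28.6 UMIs per barcode at 0 h and 1.06 at 30 h. With each partner thinned to a mean of 1 UMI in every library, r with Fasn was 0.19, 0.32, 0.22, 0.25 and 0.11 in time order, highest at 8 h and lowest at 30 h. With counting noise taken out, it was 0.65, 0.65, 0.47, 0.64 and 0.28. The value as counted was higher at 0 h than at 8 h, 16 h or 24 h, and after this thinning it was lower. The thinning matched the mean count of Fasn only, and the depth of barcodes and of Scd1 still differed between libraries. The 30 h value was lowest by all 3 measures. For Gpam, r after thinning was 0.32, 0.22, 0.21, 0.23 and 0.10, highest at 0 h and lowest at 30 h.

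The desaturases Fads1 and Fads2 had their highest r with Scd1 at 24 h. This was not particular to them: the median r over all partners was also highest there, at 0.33 against 0.19 to 0.23. For Fads1, r was 0.23, 0.21, 0.24, 0.36 and 0.21 in time order, and for Fads2 it was 0.20, 0.29, 0.23, 0.43 and 0.24. After thinning, r with Fads2 was highest at 8 h (0.25) and stood at 0.19 at 24 h.

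Over the 26 partners present in all 5 libraries, the highest mean r was with Cyp2e1 (0.46), followed by Igfbp2 (0.40). Cyp2e1 is also part of the ratio that ranks barcodes by zone. Within zone bins, r with Cyp2e1 was 0.21, 0.20, 0.32, 0.48 and 0.28 in time order, and without Alb in the depth term 0.086, 0.16, 0.12, 0.14 and 0.18. Igfbp2 encodes a secreted IGF-binding protein, and its r with Scd1 was 0.33, 0.36, 0.43, 0.50 and 0.41. It ranged from 0.26 to 0.41 within zone bins and from 0.23 to 0.42 without Alb.

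The lowest mean r was with Cyp2f2 (-0.18), Hsd17b13 (-0.18) and Sds (-0.039). The sign for Cyp2f2 depended on the treatment: r was -0.28 to -0.10 as counted, but above 0 in all 5 libraries without Alb (0.0051 to 0.44) and within zone bins (0.0083 to 0.12). Hsd17b13, a lipid droplet protein, had r of -0.21 to -0.15, and above 0 without Alb in all libraries but 8 h.

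Pck1, the gluconeogenic enzyme phosphoenolpyruvate carboxykinase, was the lowest partner of Scd1 at 0 h, at -0.27. In the fasted libraries its r was 0.22, 0.17, 0.38 and 0.36. Within zone bins the values were -0.26, 0.18, 0.17, 0.38 and 0.36 in time order. Without Alb in the depth term they were -0.40, -0.026, 0.16, 0.43 and 0.28, so the sign at 8 h changed. With Pck1 thinned to a mean of 1 UMI they were -0.23, 0.13, 0.058, 0.086 and 0.10, and with counting noise taken out -0.38, 0.17, 0.062, 0.24 and 0.30. The negative value at 0 h was present under each of these treatments. With 1 library per time point, the difference between 0 h and the fasted libraries was not tested.

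**Figure D5:**
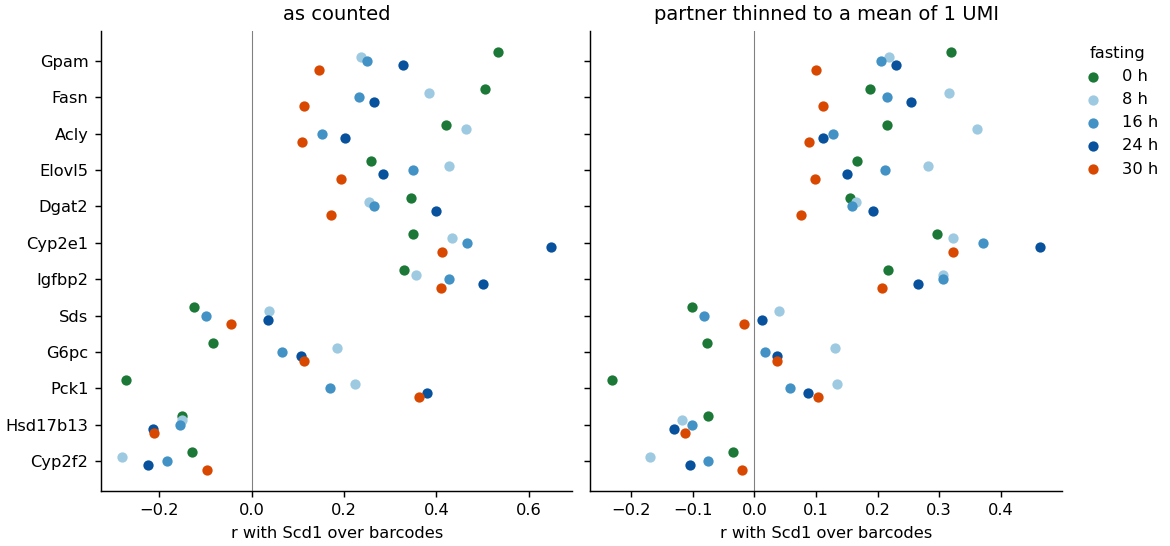
Pearson's r of Scd1 with 12 panel genes over barcodes of at least 200 UMIs, as counted (left) and with the partner thinned to a mean of 1 UMI per barcode (right), 1 point per gene and library; the horizontal axes differ in range. Pck1 is at -0.27 at 0 h and at 0.17 to 0.38 in the fasted libraries as counted, but at -0.026 at 8 h without Alb, and Cyp2f2 is below 0 here but above 0 in all 5 libraries without Alb or within zone bins.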

How the data were processed

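The authors deposited 1 matrix of UMI counts (64 genes by 47473 barcodes, whole numbers, not normalized) and a table giving each barcode's library. Libraries came from isolated hepatocytes by droplet 3′ sequencing followed by hybrid capture of the gene panel, per the labels' protocols. Cell Ranger 6.0.1 and genome mm10 are named in the submitters' processing notes. The sources used here do not give how barcodes were called as cells.

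All barcodes were used and all columns were mapped to a library. Doublets were not called on so small a panel. An alternative left out the top 5% of barcodes by UMIs. UMIs were summed per library and divided by panel UMIs (CPM). Intervals at 95% were exact Poisson for CPM, exact conditional binomial for ratios and exact Clopper-Pearson for shares. They cover only the error of counting. Single libraries allowed no test. A count of 0 was taken to allow 3 counts.

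For zones, barcodes were ranked by log2((Cyp2e1 + 1)/(Cyp2f2 + 1)), ties in random order, in 10 bins, 2 at each end. Spread and coupling used barcodes of at least 200 UMIs, and coupling used partners with a mean of at least 1 UMI. Gene comparisons needed 100 UMIs.

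Scd1, the gene lists and the analyses were chosen with earlier results of these data known. Named were Scd1, the panel's members of a lipogenesis and a fasting list, Alb, Cyp2e1, Cyp2f2, the 3 genes most like Scd1 by time and by zone, and the 3 highest and 3 lowest by mean r. Of these, 1 gene is not reported here. Glul took no part in the rule and checks the zone axis. Alternatives were CPM without Alb, UMIs per barcode, scaling by the median of ratios, barcodes of 300 or more UMIs, and 1 bin at each end. Coupling with counting noise removed, coupling with the partner thinned, and likeness without the 8 h library were added after seeing the data. The first divides the covariance of UMIs about depth-proportional means, relative to those means, by both coefficients of variation beyond counting. A planned search of the Scd1 promoter and protein was not run. Gene positions came from GENCODE M21, where 64 of 64 identifiers matched with equal names. The zone ratio, the spread beyond counting and coupling with counting noise removed were tested on simulated data. Coupling as counted was tested there for its sign only. Depth was set independently of zone, unlike in the libraries, and the other steps were not simulated. Python 3.11.15, numpy 2.4.6, scipy 1.17.1 and pandas 2.3.3 were used.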

Additional observations from a re-analysis of the deposited data

Results flagged for a closer look

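The coupling of Scd1 with Pck1 over barcodes had 1 sign at 0 h and, as counted, the opposite sign in every fasted library. With Alb left out of the depth term, the sign at 8 h (-0.026) was that of 0 h (-0.40). Relative to 0 h, r was higher by 0.49, 0.44, 0.65 and 0.63 after 8, 16, 24 and 30 h. As counted, r with G6pc, the catalytic subunit of glucose-6-phosphatase, exceeded that of the fed library by 0.27, 0.15, 0.19 and 0.196. It was -0.083 at 0 h and 0.065 to 0.18 in the fasted libraries. Without Alb in the depth term it was -0.085 at 0 h and 0.13, 0.14, 0.28 and 0.13 in the fasted libraries. With G6pc thinned to a mean of 1 UMI it was -0.078, 0.13, 0.016, 0.036 and 0.036 in time order. These correlations are given as values only, and those with G6pc were weak. The differences from 0 h for Pck1 and G6pc were not tested, because each time point is a single library.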

How the results depend on the processing

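Against 0 h, Scd1 kept its direction at 24 h and 30 h under every alternative run, and at 8 h and 16 h under all but UMIs per barcode. UMIs per barcode gave log2 ratios of -1.60, -0.40, 0.58 and -0.31 at 8 h, 16 h, 24 h and 30 h. In that order the ratios were 0.17, 0.36, 0.48 and -0.38 without Alb, 0.021, 0.39, 0.48 and -0.39 by median-of-ratios scaling, and 0.073, 0.30, 0.38 and -0.39 without the top 5% of barcodes. Barcodes of 300 or more UMIs gave 0.11 at 8 h and 0.28 at 16 h, and a log2 change of 2.87 in Scd1 per Fasn UMI at 8 h, against 2.72 in all barcodes. The zone ratio of Scd1 in time order was -0.0098, -0.0046, -0.19, -0.30 and -0.30 without Alb, with Cyp2e1 kept in the denominator (intervals at 0 h and 8 h include 0). By UMIs per barcode the zone ratio was -0.12, -0.040, 0.039, 0.013 and -0.013. With 1 bin at each end it was 0.81, 0.87, 0.76, 0.74 and 0.66. Without the top 5% it was 0.78, 0.79 and 0.84 at 0 h, 8 h and 16 h, and in barcodes of 300 or more UMIs 1.02, 0.79 and 0.71 at 8 h, 24 h and 30 h. Over all partners, r changed sign in 10, 5, 4, 7 and 9 cases without Alb in the depth term, and in 2, 1, 1, 1 and 2 within zone bins. Among the partners named here, the first did so for Pck1 at 8 h (-0.026), for Cyp2f2 (0.13, 0.0051, 0.21, 0.44 and 0.28 in time order), for Hsd17b13 at 0 h, 16 h, 24 h and 30 h (0.080, 0.12, 0.33 and 0.18), and for Sds at 8 h (-0.033) and 30 h (0.15). It also did so for Elovl3 at 8 h (-0.015) and 30 h (-0.15), Nr1h4 at 0 h (-0.040), and Glul at 24 h (-0.19) and 30 h (-0.022). The second did so for Cyp2f2 (0.045, 0.017, 0.0083, 0.10 and 0.12) and for Sds at 30 h (0.060). Leaving Alb out changes the denominator by construction, and the cause of the other changes was not tested. The 8 h library, with 47.8% of barcodes under 200 UMIs, limits every value that rests on it. No paired analysis was possible because each time point has 1 library and no test was made.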
